A study of Homo sapiens with 21 samples.

Results

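The 78 genes described here are those named for the proteins of the mitochondrial ribosome. They were chosen by symbol, as every gene whose symbol is MRPL or MRPS followed by a number and, where present, a letter A, B or C. They are 78 of the 60651 human genes with a row in the count table. The rule reads the symbol alone.

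RNA-seq was performed on 21 tumors, 7 each from control, Oxy186-treated and Oxy210-treated mice. All were subcutaneous hind-flank tumors of A549-Luc2, a human lung adenocarcinoma line carrying a luciferase reporter, injected with Matrigel into female athymic nu/nu mice of 6 to 8 weeks. These hosts lack mature T cells. Oxy186 and Oxy210, a pair of oxysterol derivatives, were given daily by oral gavage at the same dose of 50 mg/kg, and the control group received the formulation solution alone. Each group was randomized with 10 mice, of which the tumors of 7 were sequenced. Every tumor came from the same cell line, and p-values measure the spread between tumors of that line. Tumor RNA was bulk RNA, so fewer cells and less RNA per cell cannot be told apart.

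The mitochondrial ribosome translates the few messenger RNAs that the mitochondrial genome encodes, all of them for subunits of the respiratory chain and ATP synthase. Its ribosomal RNAs come from mitochondrial DNA, whereas every one of its proteins is encoded in the nucleus, made in the cytosol and imported. The small subunit reads the messenger RNA and the large subunit joins the amino acids. Some of the proteins have bacterial relatives and others are found only in mitochondria. In lung adenocarcinoma cells, as in other dividing cells, these genes are broadly expressed, and their promoters are known for sites of ETS family factors, NRF1 and YY1.

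Promoter sequences were taken from RefSeq (GRCh38.p14) and matched for 69 of the 78 genes. There was no matching entry for MRPL35, MRPS36, MRPL2, MRPL15, MRPS28, MRPL13, MRPL23, MRPL21 and MRPL10. Both strands were searched for CCGGAAG (the ETS core), GCGCANGC (the NRF1 core) and AAGATGGCG (YY1). A gene with more than 1 promoter sequence was counted once, as holding a motif found in any of them. The ETS core was present in 30 of 69 members (43.5%). It was in 12.2% of all 27305 genes with a promoter sequence and 21.01% of the 11318 tested in the Oxy210 comparison. The NRF1 core was present in 24 members (34.8%, against 14.2% of all these genes and 24.0% of those tested). The YY1 letters were present in 13 members (18.8%, against 2.14% and 4.36%). At least 1 of the 3 was found in 51 members (73.9%), against 24.6% of all these genes and 41.7% of those tested. With the highest promoter GC content of each gene, the median was 61% in the members, 59.7% over all these genes and 67% over those tested. These matches are descriptions of letters and do not show that a factor bound.

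The sites below are from members whose RNA is described in the comparisons. They are written 5′ to 3′ along the gene's strand on GRCh38.p14, with the motif in capitals, and positions count from the RefSeq start, with the first transcribed base as 1 and the base before it as -1.
MRPS12, ETS core at -5 to 2, chr19:38930928-38930957, plus strand: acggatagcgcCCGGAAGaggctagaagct
MRPS18C, ETS core at -222 to -216, chr4:83455825-83455854, plus strand: gggctcgcggaCCGGAAGcacgcataaact
MRPS18C, NRF1 core at -136 to -129, chr4:83455911-83455940, plus strand: agaaaggtgctGCGCATGCgtattgaaaaa
MRPS2, NRF1 core at -142 to -135, chr9:135499812-135499841, plus strand: ccacaggctccGCGCACGCtctggggcatt
MRPL22, NRF1 core at -24 to -17, chr5:154941038-154941067, plus strand: tccagagtattGCGCATGCgtgctgtccag
MRPL22, YY1 letters at 36 to 44, chr5:154941093-154941122, plus strand: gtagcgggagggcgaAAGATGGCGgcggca
MRPS10, YY1 letters at 10 to 18, chr6:42217833-42217862, minus strand: cgggaccggcAAGATGGCGgcgcggacagc
MRPL38, YY1 letters at 7 to 15, chr17:75904859-75904888, minus strand: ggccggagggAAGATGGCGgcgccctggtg
MRPL38, ETS core read on the other strand at -208 to -202, chr17:75905074-75905103, minus strand: tccaacgggcaCTTCCGGagccgggcgtct

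The YY1 letters of MRPL22, MRPS10 and MRPL38 all lay just downstream of the start and contain the triplet ATG. The ETS core of MRPS12 spanned the start itself. MRPL22 and MRPL38 both carried the YY1 letters, and in the comparison of Oxy186 r1 to r4 with control their log2 fold changes were 0.63 and -0.86. MRPS12 and MRPS18C both carried the ETS core, with -1.55 and 0.96 in that comparison.

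By GENCODE position, 17 of 78 members (21.8%) began within 1000 bp of a protein-coding gene on the other strand that pointed away from them, against 1712 of 20020 protein-coding genes (8.55%). MRPL46 and MRPS11 form such a pair with each other, one protein for each subunit, with starts 63 bp apart. MRPS12 begins 181 bp from SARS2, the mitochondrial seryl-tRNA synthetase. MRPL36 and MRPL47 each begin 41 bp from a respiratory complex I gene, NDUFS6 and NDUFB5. MRPS18C begins 77 bp from HELQ and MRPL10 begins 93 bp from LRRC46. These distances use GENCODE starts, which can differ from the RefSeq starts of the motif positions above, as for MRPS18C and MRPL38. The interval between MRPL46 and MRPS11 is shown because both members start from it. It is 62 bases long with 66.1% GC, lies in no exon and holds none of the 3 motifs.
MRPL46 and MRPS11 interval, chr15:88467391-88467452, minus strand: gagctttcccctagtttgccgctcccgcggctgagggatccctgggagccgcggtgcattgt

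Total counts per tumor ranged from 13787493 to 17865119, and no pair of tumors within a group was alike within sampling noise. All 8 lung epithelial carcinoma markers were counted in all tumors, and CDKN2A, deleted in A549 cells, was at 0 in all 21. Reads were assigned to human genes, and the summed level of 6 fibroblast markers was at most 260 CPM (counts scaled to a common library total), nearly all of it COL1A1 and LUM, with COL1A2 between 0 and 0.068 CPM. Endothelial markers summed to at most 5.77 CPM with KDR and VWF at a median of 0, and leukocyte markers to at most 23.3 CPM. Among the leukocyte markers LYZ reached 22.7 CPM, PTPRC 0.453 and CD68 0.408, with CD3E at a median of 0.

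Of the 78 members, 76 had enough counts to be tested. MRPL53, a large subunit protein found only in mitochondria, had 0 counts in all 21 tumors, which allows a level of up to 0.00947 CPM over the series by counting error alone. Of its exon bases, 72.8% were shared with CCDC142 on the same strand and 79.4% with ENSG00000286883 on the opposite strand. The limit assumes that reads of MRPL53 could be assigned to it, which was not tested. MRPS24, a small subunit protein with a bacterial relative, had between 1 and 12 counts per tumor and 145 in all, and 23.2% of its exon bases were shared with the readthrough gene URGCP-MRPS24. The counting setting for strand is not given in the sources used here, and reads falling on more than 1 gene are uncertain. Shared exon bases were taken from a later GENCODE release than the authors used, so the shares at counting may differ. Among the other members, 71 had at least 100 counts in every tumor. The lowest count of a tested member was 12, for MRPL12. In total the members took from 0.303% to 0.454% of the counts of a tumor.

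Levels of different members were compared per length, as CPM per kilobase of the canonical transcript, over the 7 control tumors. The highest was MRPS12, a protein of the decoding center of the small subunit, with a lowest value of 82.3, a median of 103 and a highest value of 195 CPM per kilobase (119 ± 40.3, SD, n = 7). MRPL51, a large subunit protein found only in mitochondria, followed at 116 ± 30.8 (77.5 to 171, median 109), and MRPL33, with a bacterial relative, at 113 ± 29.6 (85.0 to 177, median 108). These 3 differed by less than their spread between tumors. At the other end, MRPL2, close to the peptidyl transferase center, was at 4.64 ± 0.64 CPM per kilobase, MRPL38 at 4.73 ± 0.69 and MRPS17 at 4.77 ± 0.76, also within their spread. MRPS24 was at 0.61 ± 0.23 and MRPL53 had 0 counts. From MRPS12 to MRPL2 the counted members spanned 25.7-fold per length. MRPL2 shared 29.2% of its exon bases with another gene on the same strand, and MRPL38 41.1%. MRPS17 also shared exon bases on the same strand. Among the 3 highest, MRPL33 shared 21.1% on the same strand, and MRPS12 and MRPL51 shared none. The low levels and the span are therefore uncertain, and the part of the shared bases in them was not tested.

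Large subunit members had a median level of 34.8 CPM per kilobase and small subunit members of 20.8. Members of the large subunit with bacterial relatives had a median of 36.4, those found only in mitochondria 22.8, and the corresponding small subunit medians were 20.8 and 25.3 CPM per kilobase. These medians depend on the transcript chosen: with the length of all annotated exons they fell to 18.2 for the large and 10.9 for the small subunit, and MRPS12 no longer ranked first. Of the 76 counted members, 70 lay above the median of 12949 protein-coding genes (8.19 CPM per kilobase).

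The 3 paralogs of bacterial S18 differed in level. MRPS18B, in the small subunit, was at 49.1 CPM per kilobase, MRPS18A, whose protein sits in the large subunit despite its symbol, at 15.9, and MRPS18C, in the small subunit, at 6.55. MRPS30, likewise a protein of the large subunit, was at 19.8 CPM per kilobase. MRPS36, named for the small subunit but now assigned to the 2-oxoglutarate dehydrogenase complex, was left out of both subunits.

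Among control tumors the median coefficient of variation of a member was 20.9%, against 19.8% for protein-coding genes. It was lowest for MRPS25, a small subunit protein found only in mitochondria (7.74%), and highest for MRPL12, which forms the stalk that recruits translation factors (51.2%).

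**Figure D1:**
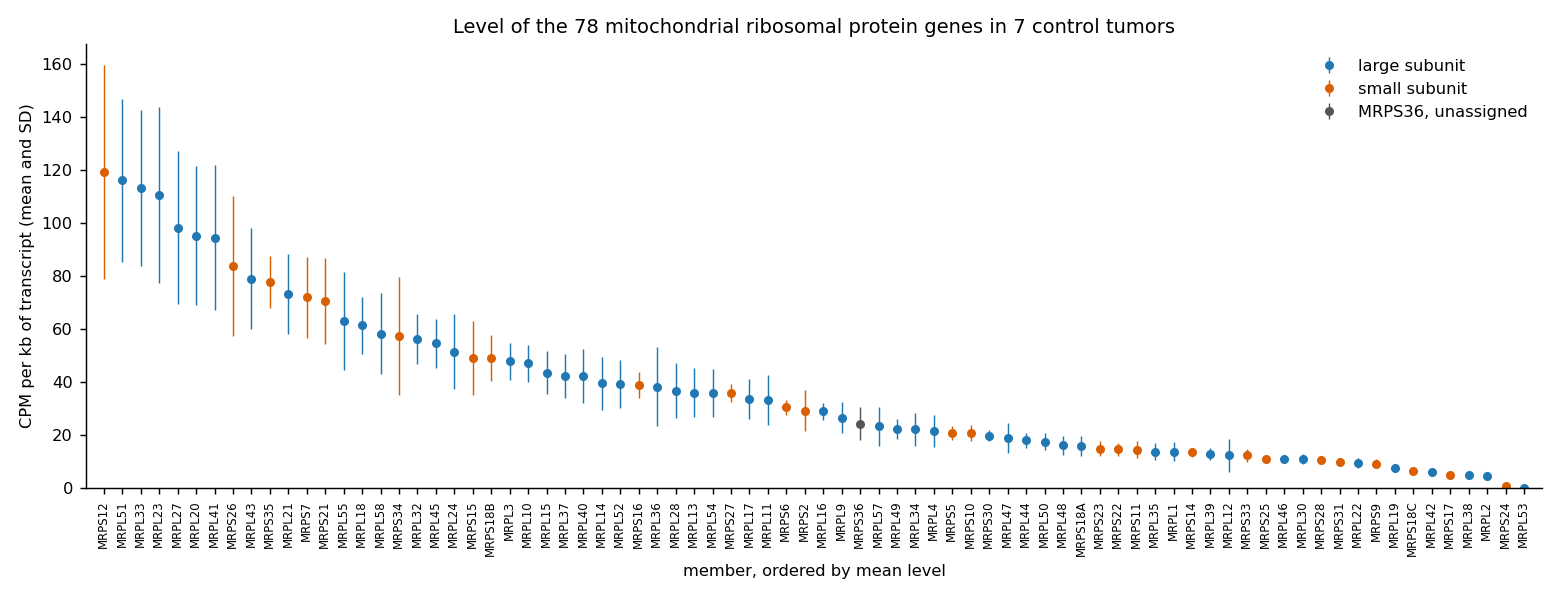
Level of each of the 78 members in control tumors, in CPM per kilobase of canonical transcript (vertical axis; point and bar, mean and SD of 7 tumors), in order of level along the horizontal axis and colored by subunit. Levels fell from 119 for MRPS12 to 4.64 for MRPL2, with MRPS24 at 0.61 and MRPL53, which had 0 counts, at 0.

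Tumors of the same group differed in the members as a whole. For each tumor the log2 CPM of the 76 tested members was taken relative to the member's mean over all 21 tumors, and averaged. Control tumors ranged from -0.31 to 0.42 (0.02 ± 0.24, SD, n = 7), Oxy186-treated tumors from -0.26 to 0.39 (0.07 ± 0.25) and Oxy210-treated tumors from -0.22 to 0.12 (-0.09 ± 0.14), so the groups overlapped. The 5 highest tumors were Control r4, Oxy186 r3, Oxy186 r2, Oxy186 r7 and Control r1. The 5 lowest were Control r5, Oxy186 r1, Oxy186 r4, Oxy210 r7 and Oxy210 r5. The summed level of the 8 lung epithelial carcinoma markers was 17342 to 19480 CPM in the 5 highest and 10768 to 12699 CPM in the 5 lowest. The part of these markers in the members' level was not tested.

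**Figure D2:**
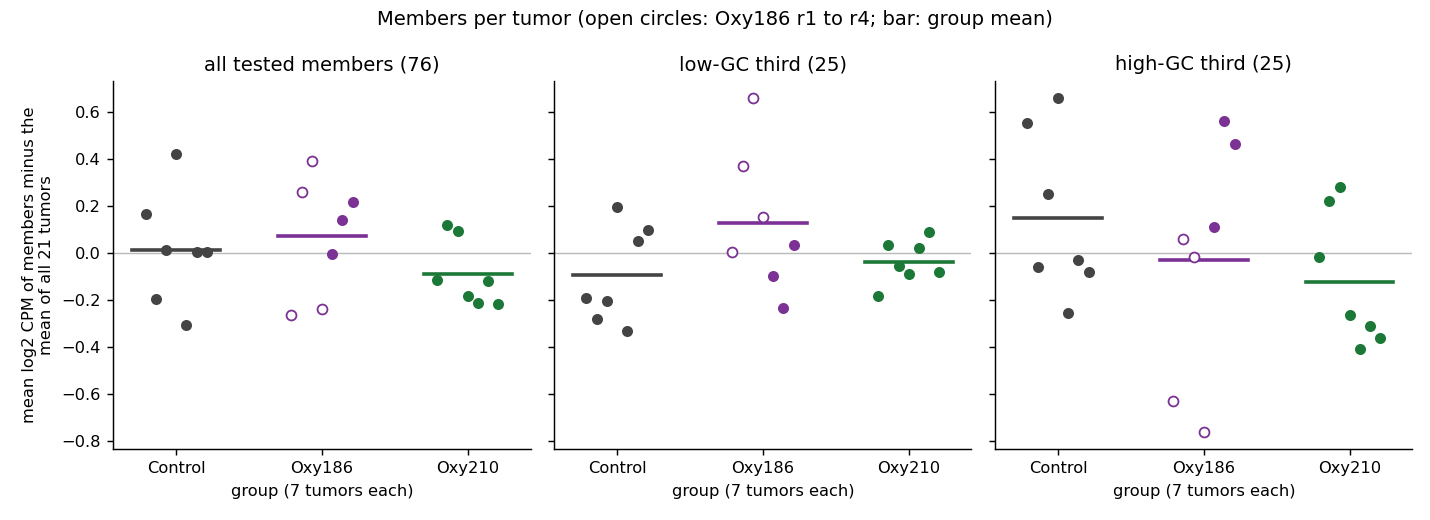
Mean log2 CPM of members per tumor minus the mean of all 21 tumors (vertical axis), for all 76 tested members, for the 25 lowest and for the 25 highest in exon GC content, by group (7 tumors each; bars, group means; open circles, Oxy186 r1 to r4). Over all members the tumors lie between -0.31 and 0.42 and the groups overlap. In the panel of high-GC members the values of Oxy186 r1 and r4 (-0.63 and -0.76) lie lowest.

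Oxy210-treated tumors were compared with control to ask what this compound did to tumor RNA. With edgeR's quasi-likelihood test, a member was called where its adjusted p did not exceed 0.05. None of the 76 members was called, where 0% of the 16396 genes tested were called. By limma voom or DESeq2 none was called either, where DESeq2 called 0.433% of all genes lower and 0.128% higher. Here 29 members had a higher mean than in control (38.2%, against 51.3% of all genes), and the median log2 fold change was -0.07 (0.01 over all genes). At an unadjusted p under 0.05, 11 members were lower and 1 was higher, where 8.12% of all genes were lower and 5.72% higher. No member had groups that did not overlap, where 0.165% of all genes had such groups. In 75 of 76 members the 95% interval lay within 1 log2 unit of 0. The median came to 0.01 when Control r4 was left out. No cell marker was called either. Of the 8 lung epithelial carcinoma markers, 7 were below 0 (median -0.15), and their summed level was 9325 to 17662 CPM with Oxy210 and 11592 to 19480 CPM in control. Fibroblast markers summed to 76.7 to 156 CPM with Oxy210 and 112 to 231 CPM in control, and leukocyte markers to 3.32 to 11.2 CPM and 4.42 to 23.3 CPM. Both were counted on human genes, whereas the hosts were mice, so they are no measure of host fibroblasts or leukocytes. The part of these markers in the members' values was not tested.

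MRPL41, a large subunit protein found only in mitochondria, ranged from 5.34 to 6.28 log2 CPM in control (median 5.65) and from 4.95 to 5.72 with Oxy210 (median 5.06). Its ranges overlapped, and its log2 fold change of -0.50 (SE 0.16) had an adjusted p of 0.270 in edgeR. MRPS18B was at 5.83 to 6.43 in control and 5.56 to 5.85 with Oxy210, a log2 fold change of -0.32. MRPS2, a small subunit protein near the exit of the messenger RNA, was at 5.09 to 5.88 in control and 4.70 to 5.46 with Oxy210, a log2 fold change of -0.44. In each of these 3 members the lowest Oxy210 tumor lay below every control tumor and the highest within the control range. The smallest p-values on the higher side belonged to MRPS25 (0.19), MRPS5 (0.18) and MRPS18C (0.28, all log2 fold changes), none with an adjusted p at or under 0.05.

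The direction of the members in this comparison went with their GC content. Of the 25 members lowest in exon GC (35.0% to 42.4%), 22 had a higher mean with Oxy210 than in control, of the 26 in between (42.5% to 51.5%) 6 did, and of the 25 highest (52.0% to 66.7%) 1 did. Their median log2 fold changes were 0.06, -0.08 and -0.25. When each library's trend of log2 CPM with exon GC content was entered as an offset, these medians were -0.06, -0.12 and -0.10, and that of MRPL41 was -0.16.

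Oxy186-treated tumors were compared with control in the same way, against the same control tumors. No member was called by edgeR, limma voom or DESeq2, and edgeR called 0% of the 16291 genes tested. A higher mean than in control was found for 54 of 76 members (71.1%, against 48.9% of all genes), and the median over members was a log2 fold change of 0.09 (-0.01 over all genes). At an unadjusted p under 0.05, 6 members were higher and 1 lower, where 1.44% of all genes were higher and 2.36% lower. None had groups that did not overlap, where 0.0123% of genes did. The 95% interval lay within 1 log2 unit of 0 for 72 members. Of the 8 epithelial markers, 5 were above 0 (median 0.10), with a summed level of 10768 to 20506 CPM with Oxy186, and their part was not tested.

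MRPL10, the protein that anchors the MRPL12 stalk to the large subunit, had the smallest p. It was at 6.13 to 6.69 log2 CPM in control (median 6.32) and at 5.81, 5.88, 5.66, 5.16, 5.97, 6.32 and 6.04 in Oxy186 r1 to r7. Only the tumor at 6.32 lay within the control range. Its log2 fold change was -0.51 (95% interval -0.83 to -0.19), with an unadjusted p of 0.0036 and an adjusted p of 0.862 in edgeR. On the same side, MRPS2 was at -0.44 and MRPL57, a large subunit protein found only in mitochondria, at -0.27.

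The smallest p-values on the higher side were those of MRPS18C, MRPL2 and MRPL22. MRPS18C was at 3.03 to 3.77 log2 CPM in control (median 3.30) and at 3.19 to 5.02 with Oxy186 (median 3.71). Of its exon bases, 40.2% were shared with ABRAXAS1 on the opposite strand. MRPL2 was at 2.22 to 2.77 in control and 2.31 to 3.55 with Oxy186, and MRPL22, which lines the exit tunnel, at 4.57 to 5.42 and 4.98 to 6.11. Their log2 fold changes were 0.62, 0.46 and 0.43, and the groups overlapped in all 3.

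The 2 compounds were then compared directly, at the same dose and schedule. No member was called by edgeR, as 0% of 16361 genes were, or by limma voom. DESeq2 called 1 member higher, MRPL51 (1.32%), where it called 0.0795% of all genes higher and 0.00611% lower. In this comparison 70 of 76 members were higher on average with Oxy186 than with Oxy210 (92.1%, against 48.5% of all genes), with a median log2 difference of 0.19 (-0.01 over all genes). At an unadjusted p under 0.05, 15 members were higher and 0 lower, where 3.14% of all genes were higher and 0.917% lower. No member had groups that did not overlap, where 0.0672% of all genes did. The difference was found in both subunits, with a median of 0.21 in the large (47 of 50 above 0) and of 0.15 in the small subunit (22 of 25). With GC offsets the median was 0.19. All 8 epithelial markers were also above 0, with a median of 0.22, and their part in the members' difference was not tested.

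MRPL51 ranged from 6.47 to 7.72 log2 CPM with Oxy186 (median 7.11) and from 6.17 to 6.95 with Oxy210 (median 6.29), while control tumors lay between 6.12 and 7.27. The Oxy186 tumors r3, r7, r2 and r6 lay above every Oxy210 tumor and the others overlapped. Its log2 difference was 0.66 (95% interval 0.29 to 1.02), with an unadjusted p of 0.0014 and an adjusted p of 0.853 in edgeR, and 0.0416 in DESeq2. Of the exon bases of MRPL51, 27.6% were shared with NCAPD2 on the opposite strand. MRPL58, a large subunit protein with peptidyl-tRNA hydrolase activity, was at 5.60 to 6.69 with Oxy186 and 5.31 to 5.69 with Oxy210, a difference of 0.52. MRPS21, of the small subunit, was at 6.03 to 6.84 and 5.76 to 6.16, a difference of 0.43. The members with the smallest p on the lower side were MRPL10 (-0.17), MRPS5 (-0.06) and MRPS25 (-0.04), all with intervals that included 0. In 74 of 76 members the 95% interval of the difference between the compounds lay within 1 log2 unit of 0.

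**Figure D3:**
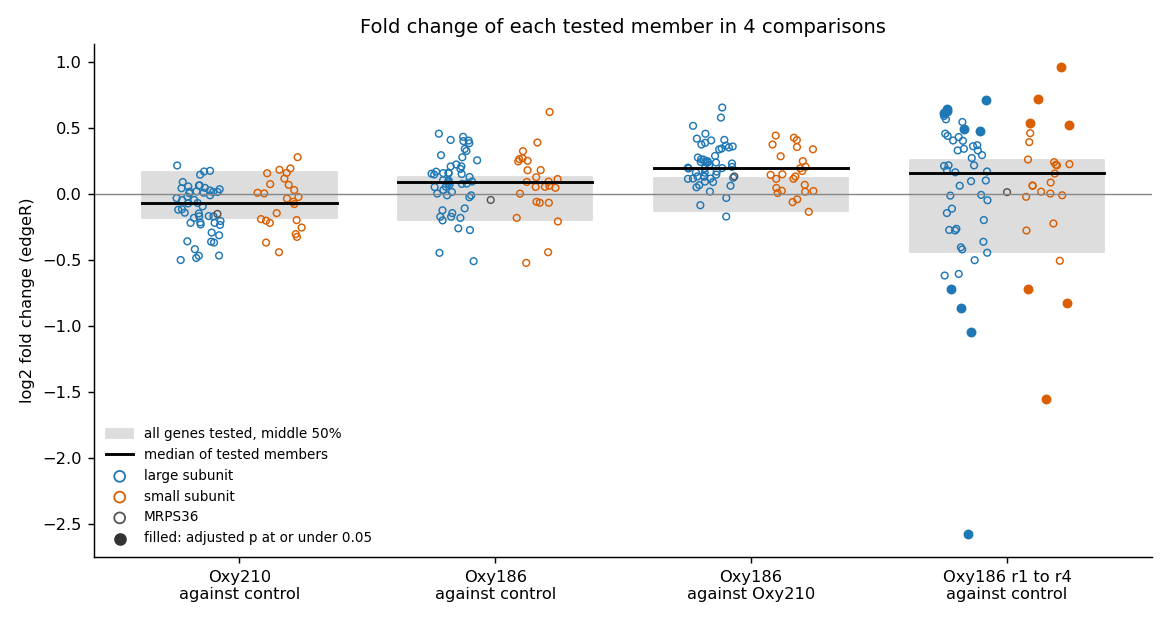
Log2 fold change (edgeR, vertical axis) of each tested member in the 4 comparisons, colored by subunit, with filled points for an adjusted p at or under 0.05. Lines are the medians of the members (-0.07, 0.09, 0.19 and 0.16) and grey boxes the middle 50% of all genes tested. Filled points appear in the comparison of Oxy186 r1 to r4 with control and in none of the other 3.

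The study compared 4 of the Oxy186-treated tumors, r1 to r4, with the control group. These 4 were picked on a principal component plot of the same expression values, so the p-values that follow are not independent evidence of a difference. In this comparison 10 members were called higher and 7 lower in edgeR, of 76. That is 13.2% and 9.21%, where 4.73% of the 16852 genes tested were called higher and 15.0% lower. A fold change over 2 as well was reached by 0 members higher and 3 lower, where 0.214% of all genes reached it higher and 8.13% lower. Of all members 48 were above 0 (63.2%, against 50.5% of all genes), and the median over members was a log2 fold change of 0.16 (0.01 over all genes). Groups did not overlap for 5 members higher and 5 lower, where 3.23% and 8.41% of all genes did not overlap on these sides.

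The called members came from both subunits, with 6 higher and 4 lower of 50 large subunit members and 4 higher and 3 lower of 25 small subunit members. Of the 8 epithelial markers, 5 were above 0 (median 0.13) and 0 were called, with a summed level of 10768 to 18759 CPM in r1 to r4. Of the 30 large subunit members with bacterial relatives, 4 were called higher (13.3%) and 3 lower (10%). Of the 15 in the small subunit, 3 were called higher (20%) and 2 lower (13.3%). Among members found only in mitochondria, the large subunit had 2 of 20 higher (10%) and 1 lower (5%). The small subunit had 1 of 10 higher and 1 lower (10% each). Over all genes, 4.73% were called higher and 15.0% lower.

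Among the members called lower were MRPL12, of the stalk of the large subunit, and MRPL10. MRPL12 was at 2.59 to 4.44 log2 CPM in control (median 3.91) and at 0.71, 1.84, 1.5 and -0.15 in Oxy186 r1 to r4. In the other Oxy186 tumors, r5 to r7, it was at 4.22, 5.14 and 4.98, and in Oxy210-treated tumors at 2.32 to 3.78. Tumors r1 to r4 thus lay below every other tumor, and r6 and r7 above every other. The log2 fold change of r1 to r4 was -2.57 (SE 0.47, adjusted p = 0.0020 in edgeR). Of the exon bases of MRPL12, 69.5% were shared on the same strand with ENSG00000262660, so its count is uncertain. MRPL10, its anchor, was called lower at -0.72 (adjusted p = 0.0056 in edgeR) and, as given above, was below every control tumor in r1 to r4.

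MRPS12, the most abundant member per length in control, was at 6.31 to 7.55 log2 CPM in control (median 6.63) and at 5.08, 5.85, 5.60 and 4.13 in r1 to r4. It was at 6.76, 7.17 and 7.26 in r5 to r7, within the control range. The log2 fold change of r1 to r4 was -1.55 (SE 0.30, adjusted p = 0.0030 in edgeR). MRPL23, near the end of the exit tunnel, was at 5.76 to 6.74 in control and at 4.75, 5.65, 5.65 and 4.19 in r1 to r4, so that every one of the 4 lay below control. Its log2 fold change was -1.04 (adjusted p = 0.0177 in edgeR). The remaining members called lower were MRPL38 (-0.86), MRPS2 (-0.83) and MRPS26 (-0.72), of which the adjusted p of MRPS26, 0.0496 in edgeR, lay nearest to the threshold. MRPL38 shared 41.1% of its exon bases with another gene on the same strand.

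Of the members called higher, MRPS6, a protein of the small subunit platform, had the smallest p. It was at 4.68 to 5.01 log2 CPM in control (median 4.75) and at 5.32, 5.57, 5.83 and 5.43 in r1 to r4, all above control. In r5 to r7 it was at 4.76, 4.56 and 4.72. The log2 fold change of r1 to r4 was 0.72 (SE 0.13, adjusted p = 0.0018 in edgeR). MRPL19, at the interface of the subunits, was at 5.61 to 6.24 in control, at 6.37, 6.62, 6.91 and 6.41 in r1 to r4 and at 5.68, 5.51 and 5.96 in r5 to r7. Its log2 fold change was 0.71 (adjusted p = 0.0060 in edgeR).

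MRPS18C had the largest increase, a log2 fold change of 0.96 (SE 0.23, adjusted p = 0.0088 in edgeR), with values of 3.71, 4.10, 5.02 and 4.10 in r1 to r4, of which the lowest overlapped control. Its paralogs did not pass the test, with MRPS18B at -0.01 and MRPS18A at 0.10. MRPS30 was at 0.27 and did not pass either. The other members called higher were MRPL48 (0.64), MRPL22 (0.63), MRPL2 (0.62), MRPS10 (0.54), MRPS31 (0.52), MRPL42 (0.49) and MRPL16 (0.48). Of the 5 members without overlap on the higher side, MRPS6, MRPL19, MRPL16, MRPS31 and MRPS10, 3 belong to the small subunit.

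The 3 tumors r5 to r7, from mice given the same compound, were set beside the same members, with no test. Of the 10 members called higher, 9 had a mean in r5 to r7 within the range of control, and 5 were on the same side of the control mean as r1 to r4. The exception on the range was MRPS6, whose mean of 4.68 lay at the lower edge of control. Of the 7 called lower, 4 had a mean within the range of control, and 2, MRPL10 and MRPS2, were on the same side. Of the 3 outside it, MRPL10 lay below the control range in r5 to r7 as in r1 to r4, with a mean of 6.11 against a lowest control tumor of 6.13, whereas MRPL12 (4.78) and MRPL38 (3.13) lay above it.

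**Figure D4:**
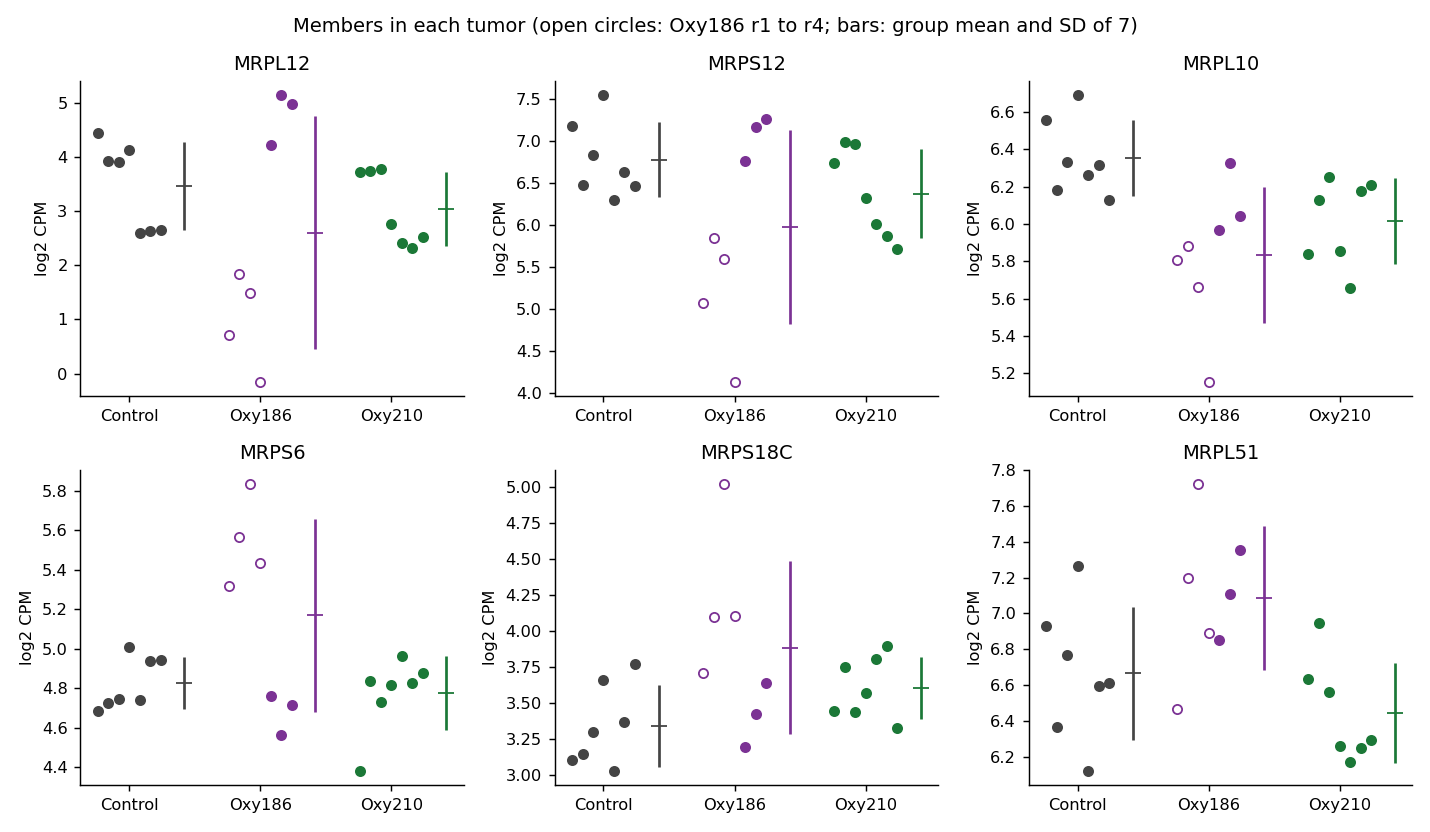
Log2 CPM of MRPL12, MRPS12, MRPL10, MRPS6, MRPS18C and MRPL51 in each tumor (points; open circles, Oxy186 r1 to r4) by group, with mean and SD of 7. Open circles of MRPL12 lie between -0.15 and 1.84, below all other tumors, whereas those of MRPS6 lie between 5.32 and 5.83, above all other tumors.

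Members called higher and lower did not overlap in exon GC content. It was 37.3% to 51.5% in the 10 called higher and 52.0% to 64.6% in the 7 called lower. Of the 25 members lowest in GC, 24 were above 0 and 7 were called higher, and the median was 0.39. In the 26 of intermediate GC, 20 were above 0 and 3 were called higher (median 0.18). In the 25 highest, 4 were above 0 and 7 were called lower (median -0.42). Over all genes, the slope of a tumor's log2 CPM on exon GC content, for each 10 percentage points, was -0.51 to -0.18 in r1 to r4, 0.08 to 0.49 in r5 to r7, -0.15 to 0.40 in control and -0.33 to 0.26 in Oxy210-treated tumors.

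With GC offsets in the edgeR fit, 5 members were called higher and 3 lower, where 1.79% of all genes were called higher and 2.26% lower. The medians of the 3 GC groups were then 0.15, 0.11 and 0.19. MRPL12 (-1.36, adjusted p = 0.0482), MRPS12 (-1.07, adjusted p = 0.0298) and MRPL10 (-0.57, adjusted p = 0.0232) were called lower in edgeR both with and without the offsets, as MRPS6 (0.51) and MRPL2 (0.73) were called higher. MRPL2 shared 29.2% of its exon bases with another gene on the same strand, so its count is uncertain. Of the 17 calls made without the offsets, 12 were lost with them. On the lower side these were MRPL23 (-0.02), MRPL38 (-0.14), MRPS2 and MRPS26. On the higher side they were MRPS18C (0.68, adjusted p = 0.0739 in edgeR), MRPL19 (0.45, adjusted p = 0.0791 in edgeR), MRPL16, MRPL22, MRPL42, MRPL48, MRPS10 and MRPS31, which kept values above 0, from 0.23 for MRPL42 to 0.52 for MRPL48 among the last 6. MRPL41 (0.97), MRPL21 (0.79) and MRPL28 (0.78) were called higher only with the offsets, and MRPL41 and MRPL28 were below 0 without them, at -0.42 and -0.26. MRPS2 and MRPS26, no longer called, changed sign to 0.08 and 0.23.

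**Figure D5:**
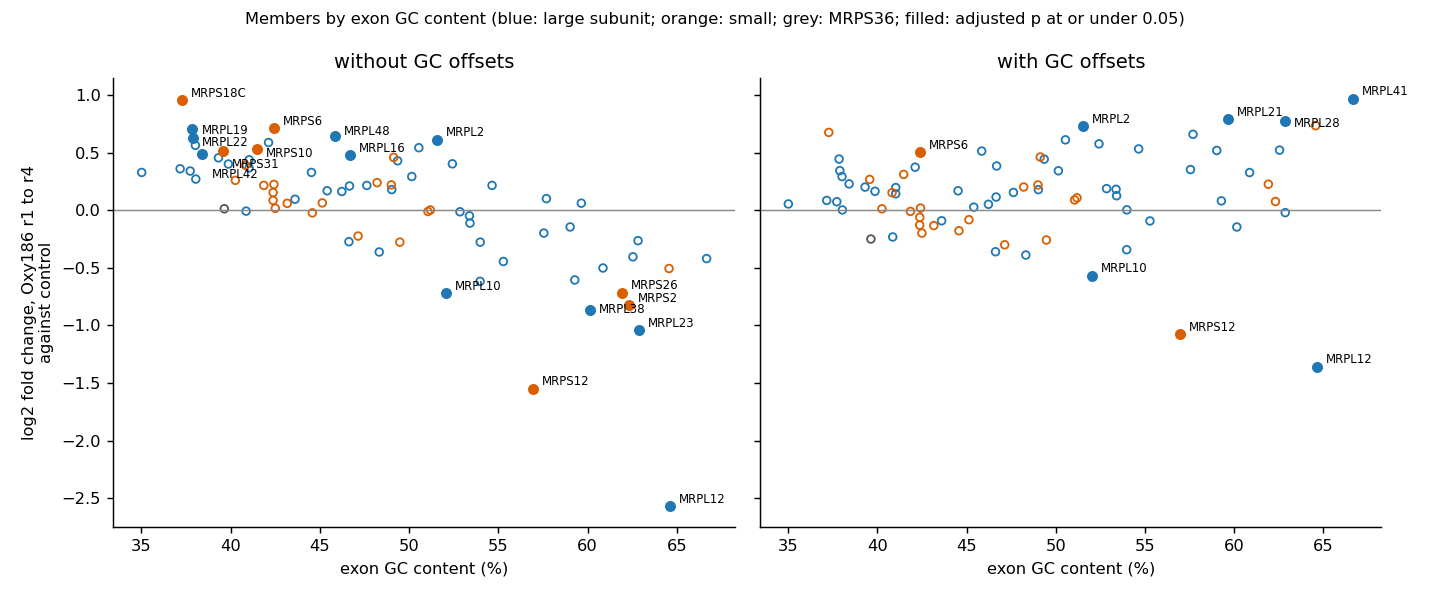
Log2 fold change of each tested member in Oxy186 r1 to r4 against control (vertical axis) by exon GC content in percent (horizontal axis), without (left) and with GC offsets (right). Filled points have an adjusted p at or under 0.05. On the left the members called higher lie at 37.3% to 51.5% GC and those called lower at 52.0% to 64.6%. On the right MRPL12, MRPS12 and MRPL10 remain below 0 and called.

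Some calls in this comparison also rested on single tumors. MRPL10, MRPL12, MRPL38, MRPS12, MRPL19 and MRPS6 were called whichever tumor was left out. Members called higher numbered 2 of 76, MRPL19 and MRPS6, without Oxy186 r3 (2.63%, where 1.49% of all genes were called higher), and 17 without Control r4 (22.4%, against 4.52% of all genes). Members called lower numbered 4, MRPL10, MRPL12, MRPL38 and MRPS12, both without Oxy186 r1 and without Oxy186 r4 (5.26%, against 13.2% and 8.67% of all genes). The median of the members was -0.03 without Oxy186 r3.

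Promoter motifs were found on both sides. Of 9 members called higher with a promoter sequence, 5 held the ETS core, 2 the NRF1 core and 3 the YY1 letters. Of 5 called lower, 3 held the ETS core, 1 the NRF1 core and 1 the YY1 letters. Of all 69 members with a promoter sequence, 43.5% held the ETS core, 34.8% the NRF1 core and 18.8% the YY1 letters. Whether the called members differed from these shares was not tested.

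The other genes that mitochondrial translation depends on were followed in lists by role, and edgeR called none in any of the first 3 comparisons. Of 5 mitoribosomal proteins with symbols outside the MRP series, AURKAIP1, a small subunit protein found only in mitochondria, was called lower in Oxy186 r1 to r4 at -1.75 (adjusted p = 0.0016 in edgeR), and its value was -0.21 with GC offsets. DAP3, the GTP-binding protein of the small subunit, was at 0.23, PTCD3 at 0.18, CHCHD1 at -0.15 and GADD45GIP1 at -0.26, none called.

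In r1 to r4, where 4.73% of all genes were called higher and 15.0% lower, 4 of 14 mitochondrial translation factors were called higher (28.6%) and 0 lower. They were SLIRP, which stabilizes mitochondrial messenger RNAs (0.78), the initiation factors MTIF3 (0.47) and MTIF2 (0.47), and the release factor MTRF1 (0.44). None of the 4 was called with GC offsets. Of 24 tested genes for assembly of the ribosome and modification of its RNA, 1 was called higher, FASTKD2 (0.42), and 4 lower, among them the GTPase MTG1 (-0.92) and the helicase DHX30 (-0.65). These shares, 4.17% and 16.7%, were close to those of all genes, and with GC offsets 2 genes of this list were called higher and 0 lower.

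Of 20 mitochondrial aminoacyl-tRNA synthetases and related enzymes, 3 were called higher, among them QRSL1 (0.51) and WARS2 (0.48), and 1 lower, and none of the 20 was called with GC offsets. The 1 called lower was SARS2, the head-to-head neighbor of MRPS12, at -0.72 (adjusted p = 0.0229 in edgeR). With GC offsets SARS2 was at 0.02, whereas MRPS12 was at -1.07. Of 5 genes of mitochondrial DNA transcription, 1 was called lower, the RNA polymerase POLRMT, at -0.88, and its value was 0.40 with GC offsets. Of 9 regulators, 1 was called lower, ESRRA, a nuclear receptor acting on nuclear genes for mitochondrial proteins, at -1.88 (adjusted p = 0.00065 in edgeR). It was still called lower with GC offsets, at -0.74 (adjusted p = 0.0115).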

How the data were processed

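RNA was extracted from 21 xenografts, 7 per group. The authors trimmed reads with Trimmomatic 0.39, aligned them with STAR 2.7.6a to a combined human (GRCh38.p13) and mouse (GRCm39) genome and counted uniquely mapped reads on human genes with featureCounts (Subread 2.0.1). They deposited raw counts per gene. They also deposited log2 CPM after edgeR filtering and TMM normalization for control and Oxy186 r1 to r4, which was recomputed from the counts here to within 4.97e-14. All columns were mapped to tumors, and 0 were left over. Counts were tested over all genes with edgeR 4.0.16 in R 4.3.3 (filterByExpr, TMM, quasi-likelihood test, Benjamini-Hochberg), calling an adjusted p at or under 0.05. Log2 CPM used a prior count of 2. GC offsets were splines with 4 degrees of freedom per library over exon GC (GENCODE, GRCh38). The 95% intervals of fold changes come from the edgeR fit and include the spread between tumors, and the limit on a count of 0 covers counting error only. Total counts were 13787493 to 17865119 per tumor.

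Alternatives were limma 3.58.1 (voom), DESeq2 1.42.0, other scalings and filters, GC with length offsets, a replicate block and leaving out each tumor. The scripts were tested on simulated data. The members were defined by symbol, and this gene family and the lists were taken up with earlier results of these data known. Named with values were the 3 highest and lowest members per length, the 3 largest called changes in each direction or else the 3 smallest p, members called past a fold change of 2 or whose call or sign changed with GC offsets (3 of each), the S18 paralogs and MRPS30, the 5 proteins with other symbols, and the 2 largest called changes per list and direction. Other members named were chosen after their values were seen.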

Additional observations from a re-analysis of the deposited data

Results flagged for a closer look

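Over 120 sets of tumors, which were the 3 groups of 7 and Oxy186 r1 to r4 for 26 named members and for 4 summaries of the members, 3 tumors stood apart from the other 6 of their group, where chance flags about 1 in 20 sets. MRPL33 was at 6.49 log2 CPM in Control r4, against 5.44 to 5.80 in the other control tumors. MRPS5 was at 5.93 in Oxy210 r5, against 6.25 to 6.36 in the other Oxy210-treated tumors. MRPS6 was at 4.38 in Oxy210 r1, against 4.73 to 4.97 in the others. Control r4 was also the tumor with the highest mean level of members.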

How the results depend on the processing

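MRPL53 and MRPS24 had too few counts to be tested, with the cause not tested. Counts of members that share exon bases with a gene on the same strand are uncertain under any strand setting. Those that share them with a gene on the opposite strand are uncertain because that setting is not given. The shares come from a later GENCODE release than the authors used and may differ from those at counting. In the 3 comparisons of whole groups every alternative except DESeq2 gave 0 members called. DESeq2 called 1 higher in Oxy186 against Oxy210 (1.32%, against 0.0795% of all genes). The medians of members kept their sign in these comparisons except that of Oxy210 against control, which ranged from -0.12 to 0.01 as single tumors were left out, and the median in r1 to r4 against control ranged from -0.03 to 0.30. Of the recomputed fold changes of named genes, 956 kept direction and side of the threshold, 103 lost the call, 3 gained it and 43 reversed. With all exons as length, the medians were 18.2 for large and 10.9 for small subunit members.

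In r1 to r4 against control, 10 members were called higher and 7 lower. Members called higher numbered 19 of 77 with all 21 libraries in 1 fit (24.7%, against 7.25% of all genes), 5 with GC offsets (6.58%, against 1.79%) and 0 with a fold change over 2 (0.214% of all genes), and 2 to 17 when 1 tumor was left out. Members called lower numbered 3 with GC offsets (3.95%, against 2.26% of all genes), 3 with GC and length offsets (against 2.52%) and 3 with a fold change over 2 (against 8.13%), and 4 to 9 when 1 tumor was left out. The 8 other mitochondrial genes called higher became 2 without a filter, 13 with all libraries in 1 fit, 2 with GC offsets and 2 with GC and length offsets. Of all genes, 4.73% were called higher as first tested, and 1.15%, 7.25%, 1.79% and 2.3% with these settings. With 1 tumor left out the 8 became 0 to 12, where 1.49% to 6.72% of all genes were called higher. The 8 called lower became 1 with either kind of offset, where the share of all genes went from 15.0% to 2.26% and 2.52%. With 1 tumor left out these 8 became 4 to 10, where 8.67% to 16.9% of all genes were called lower. The cause of these shifts was not tested.

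The labels number the tumors of each group alike and do not say that a number marks a pair. Correlations of tumors of the same number over genes ran from -0.40 to 0.33, with 3, 0 and 1 of 7 over 0.1, and 0 tumors correlated best with their own number, so they were not taken as pairs. With the replicate block 3 members were called higher (3.95%, against 1.61% of all genes) and 10 lower (13.2%, against 12.5%). With the block and GC offsets 0 were called on either side, where 0.089% of all genes were called higher and 0.315% lower. Of the other mitochondrial genes 1 was called higher with the block, and 0 higher and 0 lower with the block and GC offsets. With the block MRPL21 was at -0.11 and MRPS18A at -0.020.

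Signs reversed as follows, as log2 fold changes in r1 to r4 with GC offsets, with GC and length offsets, and with the block and GC offsets. MRPL41 was at 0.97, 0.98 and 1.03, MRPL28 at 0.78, 0.75 and 0.65, MRPS2 at 0.078, 0.043 and 0.11, MRPS26 at 0.23, 0.19 and 0.036 and MRPS18B at 0.092, 0.035 and 0.00086. PTCD3 was at -0.041, -0.032 and -0.027, GADD45GIP1 at 0.54, 0.48 and 0.34 and POLRMT at 0.40, 0.43 and 0.57. SARS2 was at 0.016 with GC offsets and 0.064 with the block added, and MRPS30 at -0.036 with both. MRPS18B was at 0.018 with DESeq2 or RLE normalization, 0.015 with library size alone or all libraries in 1 fit, and 0.011 with at least 10 counts in every library. With 1 tumor left out, MRPS18B ranged from -0.15 to 0.13, MRPL21 from -0.18 to 0.21, MRPS18A from -0.12 to 0.27 and CHCHD1 from -0.29 to 0.064. In Oxy186 against Oxy210, MRPS25 was at 0.028 with GC and length offsets and from -0.070 to 0.013 with 1 tumor left out.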

Other observations

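MRPL12 fell into separate ranges within each group. Control r1 to r4 lay between 3.91 and 4.44 log2 CPM and Control r5 to r7 between 2.59 and 2.65. Oxy210 r1 to r3 lay between 3.72 and 3.78 and Oxy210 r4 to r7 between 2.32 and 2.76. The Oxy186 tumors lay from -0.15 to 1.84 in r1 to r4 and from 4.22 to 5.14 in r5 to r7. The exon GC content of MRPL12 was 64.6%. The slope of log2 CPM on GC over all genes was 0.08 to 0.40 in Control r1 to r4 and -0.15 to 0.08 in Control r5 to r7. It was 0.10 to 0.26 in Oxy210 r1 to r3 and -0.33 to -0.10 in Oxy210 r4 to r7. The labels give no batch for the tumors, and the cause of the separate ranges was not tested.

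The count table also held 79 pseudogenes named after a member. Of these, 48 had 0 counts in all tumors, and together they had 0.450% of the counts of the members. MRPL45P2 was the exception, with 4499 counts over the series, 16.5% of the count of MRPL45, and how reads were divided between the pair was not tested. The next was MRPS31P5 with 166 counts, 3.27% of those of MRPS31.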
